A study of Mus musculus with 4 samples.

Results

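The genes of the cytosolic ribosome were followed through osteoclast differentiation of mouse bone marrow-derived macrophages (BMMs), with and without IL-3. Cells lacking STAT5 were sequenced only with RANKL and IL-3. Members were chosen by gene symbol: Rpl or Rps followed by a digit, Rpsa, Rplp0, Rplp1, Rplp2 and Fau, leaving out pseudogene symbols (-ps) and the Rps6k kinases. The rule found 87 symbols, and 85 reached 1 FPKM in at least 1 library, out of 10763 genes tested at that minimum and 23920 genes in all. FPKM counts sequenced fragments per length of transcript and per number of fragments in the library, so levels of different genes can be set side by side. The 85 genes comprised 43 of the large subunit, 32 of the small subunit including Fau, which encodes RPS30, the 3 stalk genes, 6 paralogues and Rps19bp1. The last encodes a binding partner of RPS19 and of SIRT1 and is no ribosomal protein, although its symbol meets the rule. Both symbols that did not reach the minimum were paralogues. Rpl3l, the heart and skeletal muscle relative of Rpl3, was at 0.034, 0.13, 0.19 and 0.19 FPKM, and Rpl10l, the testis relative of Rpl10, was listed at 0 throughout. Just inside the minimum stood Rpl39l, with a highest value of 1.30 FPKM, followed by Rps27, with a highest value of 4.22 FPKM.

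Each of 4 conditions was sequenced as 1 library. Cells of Stat5 fl/fl mice, whose Stat5a and Stat5b genes are flanked by loxP sites but intact, received M-CSF (30 ng/mL) alone, M-CSF with RANKL (100 ng/mL), or M-CSF with RANKL and IL-3 (1 ng/mL). Cells of Stat5 cKO littermates, which also carry an Mx1-Cre transgene, received all 3 factors. There was no cKO library without IL-3. A genotype difference present without IL-3 therefore cannot be told apart from a changed response to IL-3. Cells were taken at 24 h from C57BL/6 mice that the labels give as 8 weeks old. M-CSF keeps macrophages alive, RANKL starts their differentiation to bone-resorbing osteoclasts, and IL-3 opposes that step. The interferon-inducible Mx1 promoter drives Cre in many tissues and not in macrophages alone. By the study's methods, young mice of both genotypes had been injected with poly I:C, which was given to induce Cre. Whether cells of several mice were pooled is not given in the sources used here. With 1 library per condition there was no replicate check, so no p-value is given and every difference below is one between single libraries.

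Stat5a was at 9.89, 10.8, 11.96 and 0.17 FPKM in the M-CSF, RANKL, RANKL IL-3 and cKO libraries, and Stat5b at 10.8, 7.80, 8.86 and 0.19 FPKM, so that both targeted genes were near 0 in the cKO library. The labels call all mice male, but Xist was at 31.9 to 47.0 FPKM in all 4 libraries and 4 of 4 Y-linked genes, Ddx3y, Eif2s3y, Kdm5d and Uty, were listed at 0 in each. The libraries therefore went against the sex label, and did so alike. The summed level of 10 osteoclast markers was 45.9, 1277, 141 and 518 FPKM in the same order of libraries. Among them Calcr was listed at 0, and Itgb3 went the other way at 1.38, 0.82, 1.13 and 0.40 FPKM. The sum of 8 macrophage markers was 2930, 1298, 2122 and 1570 FPKM. Itgam was highest with RANKL and IL-3 (351 FPKM) and Cd14 in the cKO library (249 FPKM), the other macrophage markers being highest with M-CSF. The 6 dendritic cell markers summed to 143 to 660 FPKM, highest with RANKL and IL-3. Flt3 and Zbtb46 among them were at 0.44 FPKM or less in every library. The 4 neutrophil markers summed to 606 to 1066 FPKM, of which S100a8 and S100a9 made up most. Markers of T cells, B cells, erythroid, mast and stromal cells summed to 3.01 FPKM at most. How far this change in cell state entered the ribosomal protein values was not tested, and in bulk RNA fewer cells of a type and less RNA per cell cannot be told apart. Depth, estimated from the steps of low values, was 33.0, 34.8, 36.9 and 36.9 M fragments.

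A cytosolic ribosome joins a small subunit, which reads the mRNA, to a large subunit, which forms the peptide bond. Its proteins are needed in fixed proportion to each other, and those made in excess are degraded. Their mRNAs begin with a short run of pyrimidines, the 5′ terminal oligopyrimidine (TOP) tract, through which the growth kinase mTORC1 controls their translation, while MYC promotes transcription of ribosomal genes and of the factors that assemble ribosomes in the nucleolus.

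The ribosomal protein genes took up a large part of every library, and more of it with RANKL. Their summed level was 68448 FPKM in the M-CSF library. It was 91320 FPKM in the RANKL library, or 1.33 times as high. With IL-3 beside RANKL the sum was 77965 FPKM, or 1.14 times M-CSF. In the cKO library under the same 3 factors it was 93043 FPKM, or 1.36 times M-CSF. As a share of all FPKM these sums were 13.1%, 18.0%, 14.3% and 17.6%. The M-CSF and the IL-3-treated control library thus lay low, and the RANKL and cKO libraries high. The balance between the subunits barely moved, the summed large-subunit level being 1.02, 1.06, 1.04 and 1.04 times that of the small subunit.

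**Figure D1:**
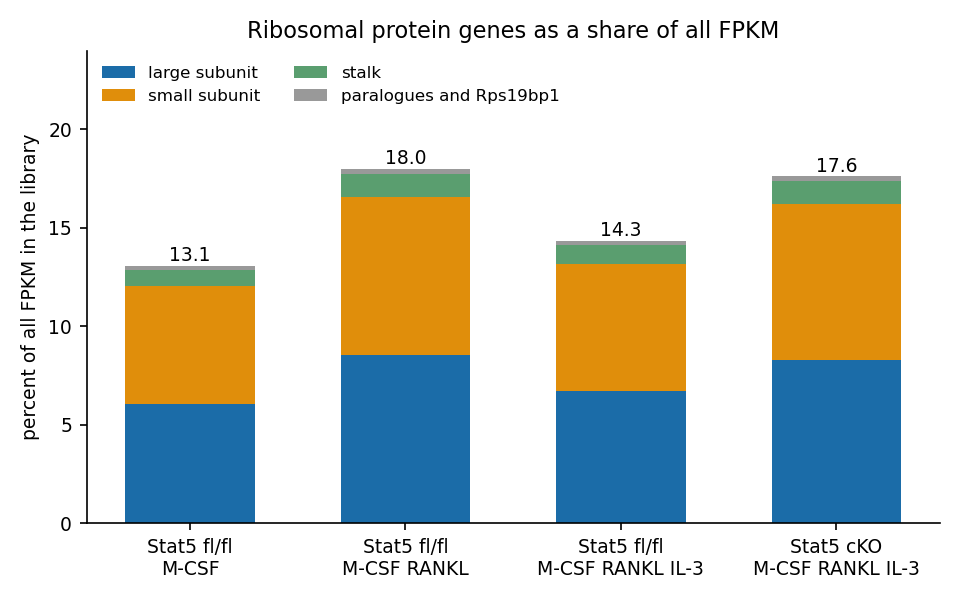
Summed FPKM of the 85 genes as a percent of all FPKM in each of the 4 libraries (vertical axis), split into large subunit, small subunit, stalk, and paralogues with Rps19bp1. The bars stand at 13.1%, 18.0%, 14.3% and 17.6%, each from 1 library and without an error bar.

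A share also moves when other abundant mRNAs do. The 10 most abundant other genes held 15.1%, 8.09%, 11.9% and 10.1% of all FPKM. Among them Lyz2, the macrophage lysozyme, was at 19887, 7176, 15871 and 11241 FPKM, and Ftl1, the ferritin light chain, at 20032, 9954, 18524 and 11859 FPKM. Both were lowest in the RANKL library, where the ribosomal share was highest. With those 10 genes taken out of the total, the ribosomal protein share was 15.4%, 19.6%, 16.3% and 19.6%. The order of the low and high libraries was the same as before, with the RANKL and cKO libraries now level.

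Within each library the level differed widely from member to member. The most abundant was Rps12, a small-subunit protein that is also a sensor in cell competition in flies, at 2119, 2997, 2412 and 3008 FPKM in the M-CSF, RANKL, RANKL IL-3 and cKO libraries. Next by mean level stood Rplp1, at 2010, 2464, 2354 and 2579 FPKM, and Rpl41, the smallest ribosomal protein, at 1868, 2368, 2333 and 2475 FPKM. Rpl32 was at 1701, 2126, 1945 and 2218 FPKM, and Rps2 at 1492, 2136, 1935 and 2204 FPKM. All 5 were lowest with M-CSF alone. Of the 85 genes, 52 were among the 100 most abundant genes of the table, and 76 were over 100 FPKM in every library. Over the 78 genes of the large subunit, small subunit and stalk, the upper quartile of the level was 1.96 to 2.02 times the lower quartile. The rank order of these 78 genes was nearly the same in each library, with a Spearman rho of 0.98 to 0.99 against the M-CSF library. This is a description across genes that share libraries, read lengths and gene models.

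At the other end stood Rpl39l at 0.57, 0.23, 0.30 and 1.30 FPKM and Rps27 at 1.88, 2.11, 2.45 and 4.22 FPKM. Rps27 encodes a regular small-subunit protein, yet its listed level was far below those of its partners, and nearly all of it was assigned to a non-coding transcript of the gene. Rps4l was at 3.53, 4.36, 4.00 and 9.65 FPKM. Rps19bp1 was at 30.3, 45.1, 41.3 and 47.4 FPKM and Rpl7l1, a relative of Rpl7 with a role in assembly of the large subunit, at 51.1, 71.6, 59.6 and 73.6 FPKM. Ribosomal protein genes have many processed pseudogenes, and a fragment that matches several copies may be split, dropped or assigned to 1 of them. Of the copies with -ps symbols that the table lists at 1 FPKM or more, Rpl14-ps1 was at 23.2 to 42.8 FPKM, Rpl31-ps12 at 15.02 to 20.6 FPKM, and the others were at 3.64 FPKM or less. How far shared reads set the low levels of Rps27, Rpl30 or Rps15a (75.1 to 93.3 FPKM) was not tested.

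**Figure D2:**
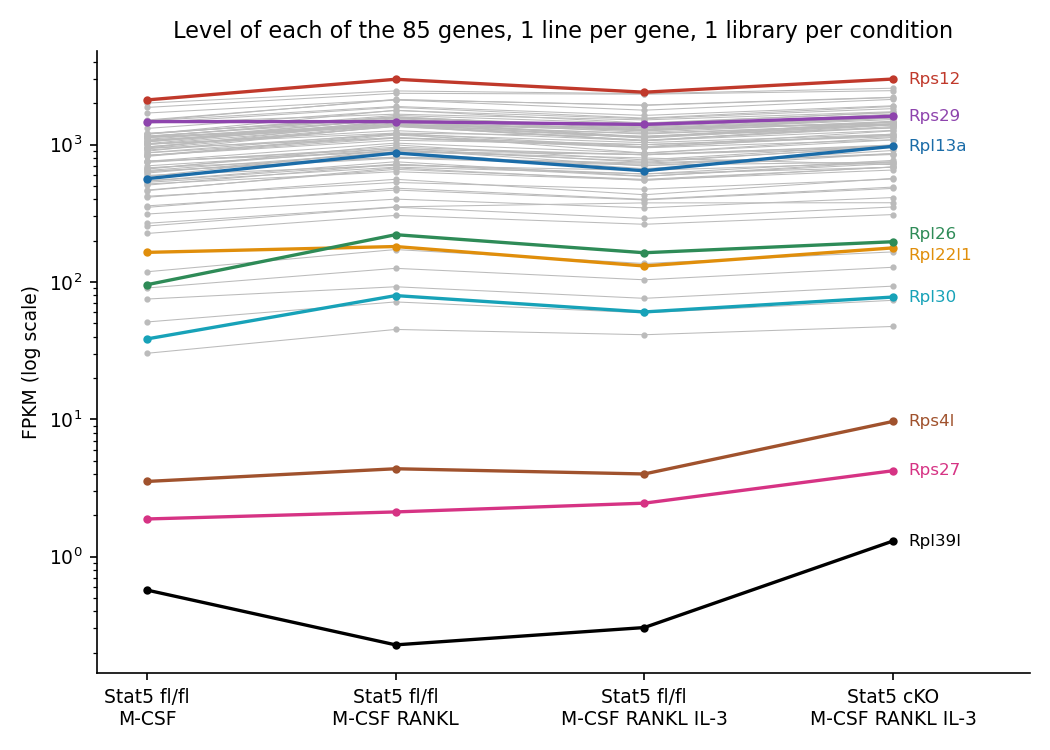
FPKM on a log axis of each of the 85 genes in the 4 libraries; every line joins the 4 values of 1 gene, and 9 genes named in the text are coloured. Most lines run in parallel between 100 and 3008 FPKM, lowest in the M-CSF library, whereas Rps29 is nearly level and Rps4l, Rps27 and Rpl39l lie under 10 FPKM.

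The members held to each other more closely than their levels differed. M-CSF gave the lowest value of 82 of the 85 genes. The highest value was in the cKO library for 63 genes and in the RANKL library for 22. For 70 of the 78 genes of the large subunit, small subunit and stalk, the highest of the 4 values was less than 1.5 times the lowest, and for 75 it was less than 2 times. None of these counts was taken over all genes, so how far they are particular to this set was not tested. All 10763 genes also shifted the same way, with median log2 ratios of 0.14 with RANKL, −0.15 with IL-3 and 0.13 in the cKO comparison.

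The first comparison asked what RANKL did to these genes in Stat5 fl/fl BMMs. Nearly all of them were higher with RANKL, most by a modest amount. The median log2 ratio of FPKM + 1 was 0.43, a ratio of 1.35, with quartiles of 0.33 and 0.50. The median of all 10763 genes was itself 0.14, so the ribosomal protein genes lay 0.29 above it. A total of 83 of 85 were above 0, where 61.0% of all genes were, and 81 lay above the all-gene median, where 50.0% of all genes lie by construction. Few passed a 2-fold difference: 2 genes were at least 2-fold higher, where 5.44% of all genes were, and 0 were at least 2-fold lower, where 6.88% were. At 1.5-fold, 6 genes were higher, against 15.6% of all genes. The shift was thus shared by almost the whole set and small for most of its genes.

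By role, the median log2 ratio was 0.46 for the 43 large-subunit genes, 0.38 for the 32 small-subunit genes and 0.35 for the 3 stalk genes. The stalk recruits translation factors to the ribosome. Rplp0, its base, was at 944, 1485, 1142 and 1464 FPKM, with a log2 ratio for RANKL of 0.65. Rplp2 was at 1495, 1899, 1634 and 1921 FPKM, with 0.35, and Rplp1 differed less, with 0.29.

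The highest ratios with RANKL were those of Rpl26 and Rpl30, both of the large subunit. Rpl26, whose protein also binds the mRNA of p53, was at 95.5 FPKM under M-CSF and reached 221 FPKM under RANKL, a log2 ratio of 1.20. Rpl30 was at 38.5 and 79.6 FPKM, a log2 ratio of 1.03. Both were listed at lower levels than most members. Rpl30 was the sum of a pair of transcripts, at 23.1 and 15.4 FPKM with M-CSF and at 40.2 and 39.4 FPKM with RANKL. Next came Rpl14 (log2 ratio 0.66), Rplp0, Rpl4 (0.63) and Rpl13a (0.62). RPL4 lines the tunnel through which the new peptide leaves the ribosome. It was at 897, 1386, 1074 and 1336 FPKM, and Rpl14 at 587, 925, 700 and 908 FPKM.

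A few members did not move with the rest. Rps29, a zinc-binding protein of the small subunit, was at 1474 FPKM in the M-CSF library and 1472 FPKM in the RANKL library. Its 4 values, which include 1405 FPKM with IL-3 and 1612 FPKM in the cKO library, spanned 1.15 times. Rpl39l was lower with RANKL, 0.23 against 0.57 FPKM, values that rest on an estimated 6.37 and 15.2 fragments. Other low ratios were those of Rpl22l1 (0.14), Rpl10 (0.21), Rps19 (0.22) and Rpl37a (0.24). Rps19 is a gene often mutated in Diamond-Blackfan anaemia, a failure of red cell production, and was at 759, 887, 852 and 979 FPKM. RPL10 joins the large subunit late in its assembly, and its gene was at 1438, 1669, 1516 and 1739 FPKM.

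The second comparison asked what IL-3 did beside RANKL in the same control cells. Nearly all members were lower with IL-3, each by a modest amount. The median log2 ratio was −0.24, a ratio of 0.85, and the median of all genes was −0.15, which left a difference of −0.09. Among genes that averaged 100 FPKM or more over the 4 libraries the gap was wider. The 702 other genes had a median of −0.04 and the 78 members −0.24. Abundance was not matched beyond that limit, and the median level of the 85 members was 831 to 1128 FPKM across libraries. Below 0 were 82 of 85 members, where 64.0% of all genes were, and 66 lay below the all-gene median, where 50.0% of all genes lie. No member was 2-fold apart, 0 being higher, where 6.11% of all genes were, and 0 lower, where 3.47% were. None was 1.5-fold lower either, where 12.7% of all genes were. The medians were −0.27 for the large subunit, −0.22 for the small subunit and −0.22 for the stalk. This comparison shares the RANKL library with the first and the RANKL IL-3 library with the third, so their values are set side by side and not correlated.

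The lowest ratio with IL-3 was that of the paralogue Rpl22l1, at −0.47, from 181 to 131 FPKM. Rpl3, whose protein helps shape the catalytic centre of the large subunit, had −0.46, from 1199 to 869 FPKM. Rpl13a, Rpl26 and Rpl14 followed with −0.43, −0.43 and −0.40. Rpl13a encodes a protein that, when released from the ribosome of interferon-treated human monocytes, silences inflammatory mRNAs. It was at 566, 870, 646 and 973 FPKM.

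Among members at 10 FPKM or more, the highest ratio in this comparison was that of Rps27l, a target gene of p53, at 268, 353 and 377 FPKM in the 3 control libraries, a log2 ratio of 0.10. Of the low members, Rps27 had 0.15. Rpl41 differed by −0.02, Rpl39 by −0.04, Rps19 by −0.06 and Rplp1 by −0.07. Rpl39, whose short protein lies in the peptide exit tunnel, was at 1133, 1373, 1338 and 1418 FPKM. These were the 5 highest ratios among members at 10 FPKM or more, whereas Rps12, the most abundant member, had −0.31.

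The third comparison set the cKO library against the control library under M-CSF, RANKL and IL-3, and so asked what the loss of STAT5 did where IL-3 was present. Members were higher in the cKO library, with 1 exception. The median log2 ratio was 0.27, a ratio of 1.21, and the median of all genes was 0.13, which left 0.15. Above 0 were 84 of 85 members, where 64.4% of all genes were, and 80 lay above the all-gene median, where 50.0% of all genes lie. At least 2-fold higher was 1 member, Rps4l, where 2.11% of all genes were, and 0 members were at least 2-fold lower, where 4.28% were. At 1.5-fold 4 members were higher, Rpl13a, Rpl39l, Rps27 and Rps4l, where 8.43% of all genes were. The medians were 0.29 for the large subunit, 0.26 for the small subunit and 0.23 for the stalk.

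Of those 4, Rpl13a was the only one at a level typical of ribosomal proteins, with 646 FPKM in the control and 973 FPKM in the cKO library, a log2 ratio of 0.59. Rps4l, an autosomal relative of the X-linked Rps4x, was at 4.00 and 9.65 FPKM, a log2 ratio of 1.09. Without the added 1 FPKM it was 1.27, with an approximate 95% counting half-width of 0.29. Its parent Rps4x was at 1196 and 1402 FPKM. Rps27 had a log2 ratio of 0.60, or 0.78 without the added 1 FPKM, with a half-width of 0.51. Rpl39l had 0.82, or 2.09 without it, with a half-width of 1.05. The half-widths cover counting error only.

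Rpl29 was the exception in the other direction. It encodes a heparin-binding protein of the large subunit and was at 622, 887, 800 and 716 FPKM, a log2 ratio of −0.16 for the cKO comparison. Rps27l was at 377 and 378 FPKM. Rpl39 and Rpl38 were each higher by 0.08 on the log2 scale and Rpl41 by 0.09. RPL38 is known for its part in the translation of Hox mRNAs in the embryo. Among members at 10 FPKM or more, high ratios after that of Rpl13a were those of Rpl22l1 (0.43), Rpl6 (0.39) and Rpl18 (0.39).

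**Figure D3:**
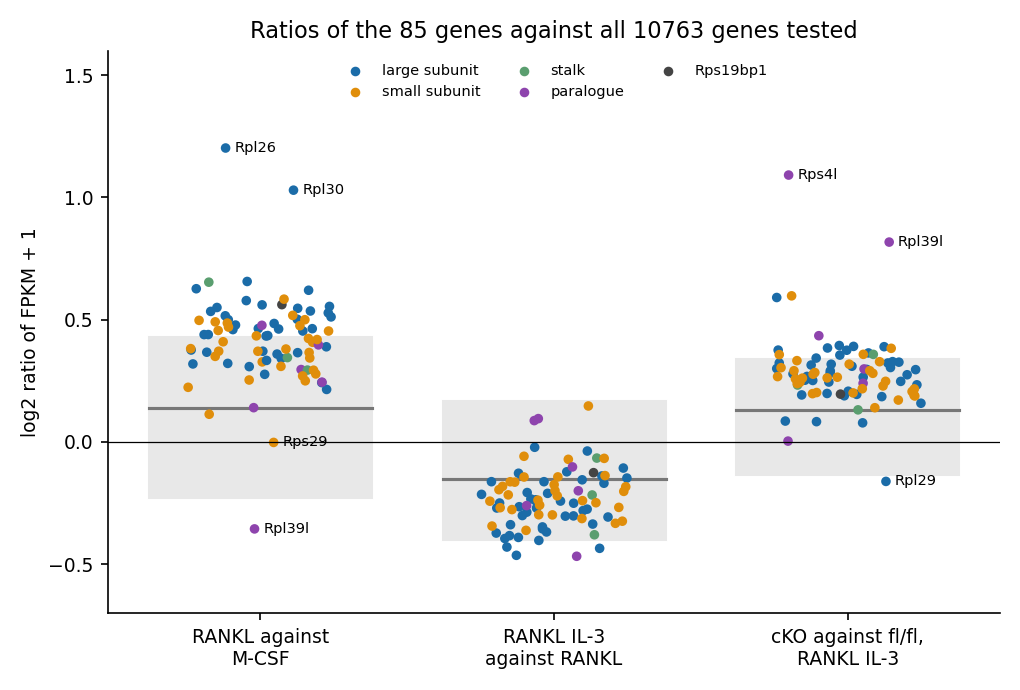
Log2 ratio of FPKM + 1 (vertical axis) of each of the 85 genes in the 3 comparisons, 1 point per gene, coloured by class. Grey boxes span the quartiles of all 10763 genes tested and grey lines mark their medians (0.14, −0.15 and 0.13); the points gather around 0.43, −0.24 and 0.27, with Rpl26, Rpl30, Rps4l and Rpl39l apart.

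The cKO culture was also set against the RANKL culture of control cells, which differed from it in genotype and in IL-3. The median log2 ratio was 0.03, with 63 members higher and 22 lower. Over all 10763 genes the median was −0.02, with 4866 genes higher and 5895 lower. The 702 other genes that averaged 100 FPKM or more had a median of 0.04, with 424 higher and 278 lower. Against M-CSF alone, the control culture with RANKL and IL-3 had a median of 0.19 over the members, with an all-gene median of −0.00. In the comparisons that share no library, RANKL against M-CSF and cKO against control, the ratios of the members had a Spearman rho of 0.39 and a Pearson r of −0.11 over 85 genes. Over the 78 members that averaged 100 FPKM or more over the 4 libraries, these were 0.58 and 0.32. These too are descriptions across genes, which are no replicates and have gene models and mapping in common.

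The narrowness of the set was itself a measurable property. For the 78 members that averaged 100 FPKM or more over the 4 libraries, the SD of the log2 ratios was taken. It was 0.15 with RANKL, 0.11 with IL-3 and 0.10 in the cKO comparison. For the 702 other genes above the same limit, not otherwise matched in abundance, the SDs were 0.95, 0.98 and 0.69. Their medians were 0.12, −0.04 and 0.08. Over all 85 members, with only the minimum of 1 FPKM, the SDs were 0.18, 0.12 and 0.15. With the same minimum, the 76 mitochondrial ribosomal protein genes, which build the separate ribosome of the mitochondrion, had SDs of 0.30, 0.24 and 0.19. Their medians, 0.47, −0.28 and 0.29, were close to those of the cytosolic genes, with 4 at least 2-fold higher with RANKL and 1 lower with IL-3, but their levels were lower, summing to 2838, 3910, 3236 and 3932 FPKM. No test was made of these differences in spread.

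Paralogues replace a ribosomal protein in some tissues, and their levels are given against those of their parents. Rpl22l1 exceeded its parent in every library, at 164, 181, 131 and 177 FPKM against 90.5, 126, 104 and 128 FPKM for Rpl22, an RNA-binding protein needed for T cell development. That was 182%, 144%, 126% and 138% of the parent, so it was highest with M-CSF. Rpl36al, at 518, 636, 554 and 654 FPKM, stood at 94.9%, 84.6%, 93.8% and 89.7% of Rpl36a. Rpl7l1 stayed at 6.09% to 6.25% of Rpl7. Rps4l was 0.33%, 0.31%, 0.33% and 0.69% of Rps4x, and Rpl39l, which replaces Rpl39 in the testis, was at 0.092% of Rpl39 or less. Rps27l was far above Rps27 in all 4 libraries, with the low listed value of Rps27 as the divisor.

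**Figure D4:**
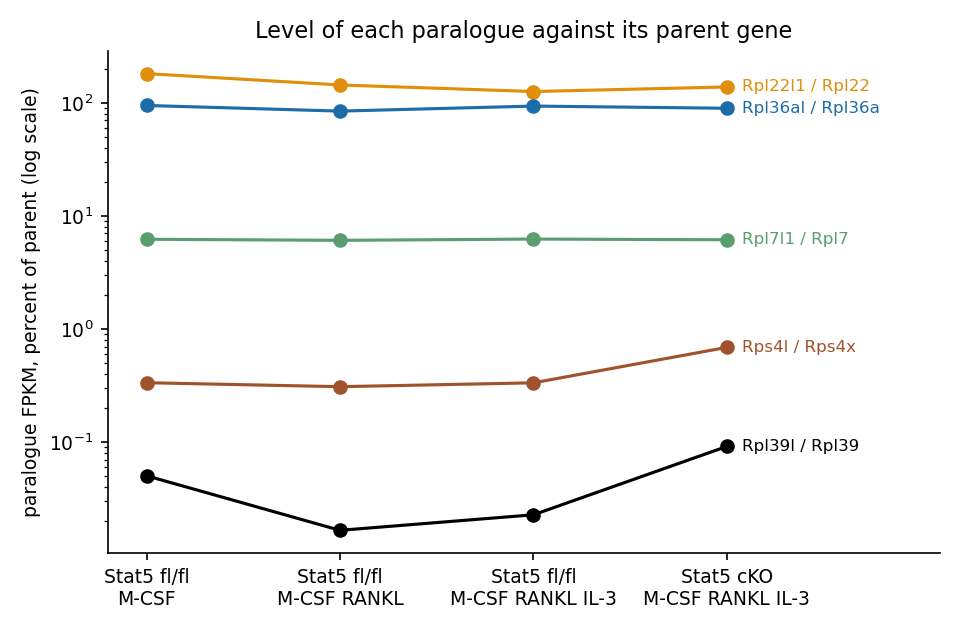
FPKM of 5 paralogues as a percent of the FPKM of their parent genes, on a log axis, in the 4 libraries with 1 library per condition. Rpl22l1 lies above 100% throughout, Rpl36al just under it, Rpl7l1 near 6.16%, and Rps4l and Rpl39l under 1% with their highest value in the cKO library.

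Since the members moved together, their start sites were inspected for shared sequence. The promoter table of RefSeq on GRCm38.p6, which gives 250 bases before and 50 bases from each start, held 64 of the 85 members among 27025 genes. Of the windows below, Fau, Rplp2 and Rps27 show the TOP start in its plain form, Rpl14 and Rpl13a belong to members with high ratios, Rpl22l1 is the paralogue with the lowest ratio under IL-3, and Rpl26 is the member with the highest ratio under RANKL. Each spans 40 bases before and 15 bases from the start. Capitals mark the 5-base pyrimidine tract beginning with C that lies nearest to the start, or in Rpl26 the motif CCGGAAG.
Fau (chr19:6057907-6057961, plus strand): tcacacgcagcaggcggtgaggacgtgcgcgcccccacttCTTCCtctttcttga
Rplp2 (chr7:141447611-141447665, plus strand): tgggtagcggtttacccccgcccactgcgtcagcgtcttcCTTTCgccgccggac
Rps27 (chr3:90213634-90213688, minus strand): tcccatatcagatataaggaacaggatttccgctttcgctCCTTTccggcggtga
Rpl14 (chr9:120571477-120571531, plus strand): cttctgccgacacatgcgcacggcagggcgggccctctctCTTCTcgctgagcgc
Rpl13a (chr7:45128731-45128785, minus strand): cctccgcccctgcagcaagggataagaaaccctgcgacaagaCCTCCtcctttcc
Rpl22l1 (chr3:28805468-28805522, plus strand): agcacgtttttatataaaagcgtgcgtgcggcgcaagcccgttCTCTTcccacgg
Rpl26 (chr11:68901526-68901580, plus strand): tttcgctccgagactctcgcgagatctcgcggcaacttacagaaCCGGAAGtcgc

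In Fau, Rplp2, Rps27 and Rpl14 the tract began exactly at the annotated start. A C followed by 4 pyrimidines stood at the start itself in 14 of 64 members, or 21.9%, and in 3.01% of all genes of the table. Within 5 bases on either side it was present in 30 of 64, or 46.9%, and in 21.2% of all genes. CCGGAAG, the core of the ETS-family binding motif, occurred on either strand of the whole window in 26 members, or 40.6%, and in 9.93% of all genes. AAGATGGC occurred in 7 members (10.9%) and in 3.19% of all genes, and TATAAA, the core of the TATA box, in 7 members (10.9%) and in 15.7% of all genes. The searches can overlap, since CCGGAAG ends with the 3 letters that begin AAGATGGC, and its reverse strand holds a pyrimidine tract that begins with C. In these percentages all genes means the 27025 genes of the promoter table, expressed here or not. A gene with several windows counted if any of them held the feature. The motifs were chosen after promoters of members had been inspected. Start sites in the annotation may lie a few bases off the sites used in these cells.

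Medians were also taken with and without each feature, as a description with no test. With a tract within 5 bases the median log2 ratio with RANKL was 0.45 over 30 members, and without it 0.39 over 34. With IL-3 the medians were −0.25 and −0.23, and in the cKO comparison 0.27 and 0.27. For CCGGAAG the corresponding medians were 0.40 over 26 members and 0.42 over 38 with RANKL, −0.21 and −0.25 with IL-3, and 0.25 and 0.29 in the cKO comparison.

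Genes that supply the ribosome were then described by list, side by side for RANKL, IL-3 and cKO. The 48 ribosome assembly factors had the larger ratios, with medians of 0.96, −0.67 and 0.55. With RANKL 21 of 48 were at least 2-fold higher and 0 lower, with IL-3 3 were lower and 0 higher, and in the cKO comparison 1 was higher and 0 lower. Dkc1, which modifies rRNA as the dyskerin pseudouridine synthase, was at 20.9, 70.2, 29.2 and 62.6 FPKM. Ncl, the nucleolar protein nucleolin, was at 92.5, 258, 116 and 234 FPKM, Nolc1 at 33.2, 95.5, 49.4 and 87.5 FPKM, and Mybbp1a at 64.6, 165, 87.3 and 152 FPKM. All 4 were low with M-CSF and with IL-3 and high with RANKL and in the cKO library, and in each comparison their ratios were larger in size than that of any member at 100 FPKM or more. Heatr1 went another way, at 16.4, 25.1, 28.4 and 23.1 FPKM.

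The 9 snoRNA host genes found of 13 listed, whose introns release the guides for rRNA modification, had medians of 1.14, −0.92 and 0.73. With RANKL 7 were at least 2-fold higher, with IL-3 1 was lower, and in the cKO comparison 2 were higher, with 0 in the opposite directions. Gas5, a non-coding gene with a TOP start, was at 11.6, 29.2, 14.3 and 27.2 FPKM, and Snhg5 at 13.8, 35.2, 18.1 and 44.6 FPKM. For the 15 genes of RNA polymerase I, which transcribes rRNA, and its factors the medians were 0.63, −0.53 and 0.47. Only Polr1b among them passed 2-fold, at 10.5, 29.8, 14.2 and 26.4 FPKM, higher with RANKL and lower with IL-3.

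Factors that work beside the finished ribosome lay nearer to its proteins. The 37 translation factors had medians of 0.52, −0.37 and 0.33, with 2 at least 2-fold higher with RANKL and 1 lower with IL-3. Eef2, which moves the ribosome along the mRNA, was at 750, 1073, 830 and 1050 FPKM. Eif3j1 was listed at 14.4 FPKM with RANKL and at 0.043 FPKM or less in the other 3 libraries. The 20 other genes with TOP mRNAs, 10 of them on both lists, had medians of 0.55, −0.36 and 0.32, and Npm1, a nucleolar chaperone, alone passed 2-fold, at 450, 1260, 697 and 1217 FPKM.

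Upstream regulators did not share one pattern. The 21 genes listed for mTORC1 and its effectors on translation had medians of 0.30, −0.24 and 0.09. The last was 0.04 below the all-gene median and changed sign under other scalings (−0.05 with a common median log2 ratio). The list also holds Rps6ka1 to Rps6ka5, kinases that are not part of mTORC1. In that order their log2 ratios were −0.72, −0.66, −1.05, −0.83 and −0.24 with RANKL. In the cKO comparison they were −0.34, −0.47, −0.86, −0.24 and 0.22. Medians without these genes were not taken. Of the 21 genes, 1 was at least 2-fold lower with RANKL, 1 was higher and 1 lower with IL-3, and none in the cKO comparison. Rps6ka3, a kinase of RPS6, was at 30.5, 14.2, 30.3 and 16.3 FPKM, and Pdcd4, an inhibitor of the helicase EIF4A, at 2.70, 6.02, 2.03 and 3.17 FPKM. The 12 transcription factors of ribosomal protein promoters that reached the minimum had medians of 0.23, −0.23 and 0.25. Myc was the only one at least 2-fold apart with RANKL, at 38.4, 124, 66.1 and 114 FPKM, while Gabpa, the DNA-binding subunit of an ETS-family factor, was at 12.9, 16.5, 11.97 and 15.04 FPKM and Yy1 at 33.1, 39.8, 33.0 and 40.5 FPKM. Mxd4 of the same list went the other way, at 11.0, 5.99, 9.69 and 4.38 FPKM. Its log2 ratios were −0.78, 0.61 and −0.99.

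**Figure D5:**
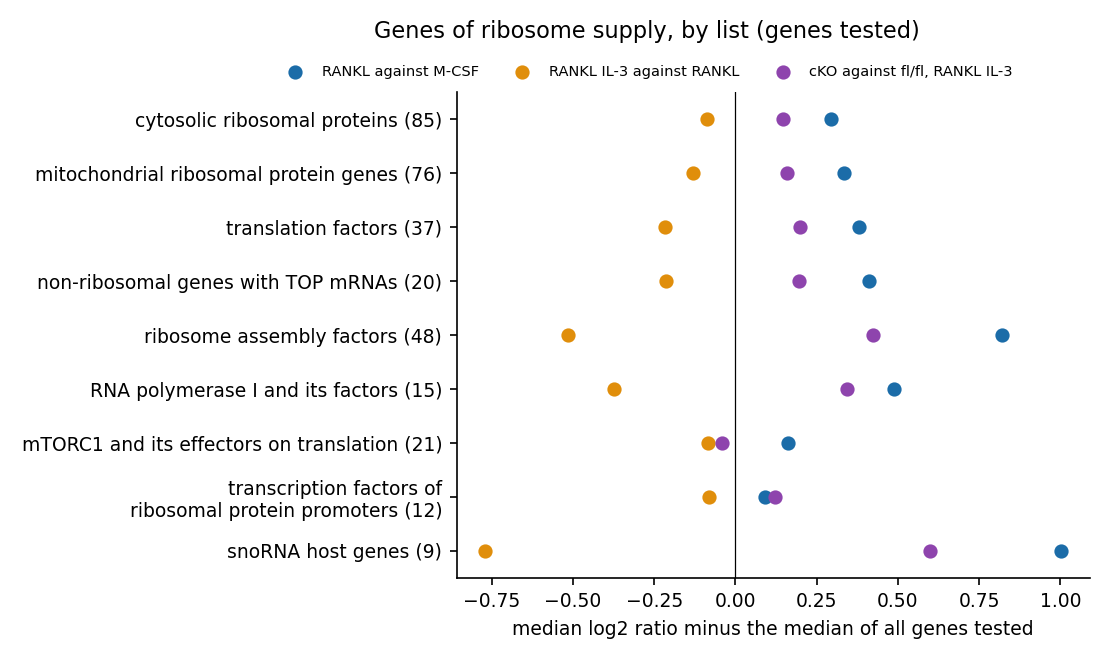
Median log2 ratio of each gene list minus the median of all genes tested (horizontal axis) in the 3 comparisons, with the number of genes tested in brackets. The cytosolic ribosomal proteins lie at 0.29, −0.09 and 0.15; assembly factors (0.82, −0.52 and 0.42) and snoRNA host genes (1.00, −0.77 and 0.60) lie farther from 0 on the same sides.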

How the data were processed

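One table of the series was used. The authors made TruSeq libraries for a HiSeq2000; their processing notes name TopHat2 2.0.13, the mm10 build and Cufflinks 2.2.1, with 1 row per RefSeq transcript. The deposited values were taken as FPKM, a unit inferred from the software and the values, since the table names none. Strand and multi-mapping options were not stated in the sources used here. Doses come from the study's methods, which give a younger age for osteoclast cultures than the labels.

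Transcripts (33170) were summed per gene ID. Genes under 1 FPKM in all libraries and 46 small RNA genes were left out. Ratios were taken as log2(FPKM + 1), which understates changes of low genes; members 2-fold apart were counted without a test. Percentages of genes past a limit refer to all 10763 genes. Depth was estimated from single-transcript genes of at least 3000 nt, where FPKM multiplied by length rises in whole fragments; 71.7% to 73.5% of low values lay within 0.2 steps, where even spacing gives 40%. Lengths came from GENCODE M21 by RefSeq accession and differ from the authors' models for some members, so fragment numbers and 95% counting half-widths are approximate. The scripts were tested on simulated data.

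The members and lists were chosen with earlier results of these data known. Named by rule were stalk genes, paralogues and their parents, the 5 most and 5 least abundant members, the 5 highest and 5 lowest ratios per comparison among members at 10 FPKM, members 2-fold apart, members next to the minimum, and up to 4 genes of each other list. Heatr1, Eef2, Gabpa, Yy1, Rps15a and the sex-linked genes were picked with their values in view. Part of the genes under the rule is left out. Alternatives changed the pseudocount, the scaling, the minimum, the transcript choice, the members and the fold. Python 3.11.15, numpy 2.4.6, pandas 2.3.3 and matplotlib 3.10.9 were used.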

Additional observations from a re-analysis of the deposited data

How the results depend on the processing

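No paired analysis was possible because each condition has 1 library. The members' medians, 2-fold counts and shares were recomputed under other settings, and none of their medians changed sign. Scaling moved the medians for RANKL, IL-3 and cKO to 0.27, −0.065 and 0.14 with a common median log2 ratio, to 0.36, −0.17 and 0.18 with a common upper quartile, and to 0.48, −0.34 and 0.32 with equal summed FPKM. Relative to all genes, these 3 scalings moved the medians by less than the counting half-width of a typical member. With no minimum the relative medians were 0.42, −0.24 and 0.27, because the all-gene median is then 0. Genes 2-fold apart with RANKL numbered 1 with a common median or upper quartile and 6 at 1.5-fold. In the cKO comparison they numbered 2 with a pseudocount of 0.1, 0 with a common median, with a minimum of 10 FPKM or without paralogues and Rps19bp1, and 4 at 1.5-fold. The share of all FPKM in the M-CSF, RANKL, RANKL IL-3 and cKO libraries was 13.6%, 18.7%, 14.9% and 18.3% from the most abundant transcript per gene. It was 12.9%, 17.7%, 14.1% and 17.4% without paralogues and Rps19bp1, 13.3%, 18.2%, 14.6% and 17.7% with small RNA genes out of the total, and 15.4%, 19.6%, 16.3% and 19.6% without the 10 most abundant other genes. The other 68 values, among them those for members of at least 500 nt, moved by less than counting error or, for counts of genes, stayed within 1.5 times. The 24 list medians were also recomputed under the 3 scalings, a choice made after seeing the data. Of 72 values 2 changed sign, both of the mTORC1 list with its Rps6ka genes in the cKO comparison. They were −0.049 with a common median and −0.0037 with a common upper quartile, against 0.087. Spreads, correlations, paralogue percentages and promoter medians were not recomputed. Variation between cultures and mice is unmeasured with single libraries. Depth limits the values of Rps27, Rps4l and Rpl39l, which rest on few fragments.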
